A study of Drosophila melanogaster with 16 samples.

Results

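A set of 97 genes of Drosophila melanogaster whose RNA was lower in all 3 heat-shocked groups of embryos than in untreated wild-type embryos is described here. The genes were selected on these measured values. Each of 14038 probe sets was quantile normalized over 16 arrays, set to a floor of 20 where it lay below it, and converted to log2. A gene was kept when its probe set lay above the floor on all 5 untreated arrays and the mean of each heat-shocked group was at least 1.5 log2 units below the untreated mean. Of the 14038 probe sets, 8807 lay above the floor on all 5 untreated arrays, and 118 of them met the levels. Symbols that start with Cpr, Ccp84A, Twdl or E(spl) were left out, which removed 21 probe sets and left 97 probe sets of 97 genes. The 21 all carry Cpr, Ccp84A or Twdl symbols, families of cuticle proteins, and had mean differences of -5.06 to -1.71, so these genes of the cuticle are not among the members although they met the levels. With untreated arrays 4 and 5 left out the rule gave 137 members, and with untreated arrays 1 to 3 left out it gave 193. Both versions also ask for fewer untreated arrays above the floor, and the part of this in the higher counts was not tested. Of the 97 genes, 46 have a symbol and 51 are known here by a CG number alone. The 3 differences from untreated embryos are therefore a description of the choice and carry no test.

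RNA of whole embryos was hybridised to single-colour oligonucleotide arrays, 1 array for each replicate. The hsp-otd group (4 arrays) came from line 5A, in which the fly homeobox gene otd, now named oc, is driven by a heat shock promoter. The hsp-Otx2 group (4 arrays) carries the human gene Otx2 under such a promoter. The heat-shocked wild type (3 arrays) and the untreated wild type (5 arrays) are Oregon-R. All 3 heat-shocked groups were collected over 12 h, aged for 4 h at 25 °C, held at 37 °C for 25 min and left to recover at 25 °C for 25 min. The labels place all groups at stages 10 to 17. For the untreated embryos they state neither a heat treatment nor how long embryos were collected and aged. Heat shock therefore cannot be told apart from differences in collection, age or batch wherever a heat-shocked group is set against the untreated one. A heat shock promoter is active broadly, so neither line restricts its transgene to a tissue. In RNA of whole embryos, fewer cells of a type and less RNA per cell cannot be told apart.

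Late in embryogenesis the epidermis and the tracheae secrete a cuticle, a layered matrix of chitin fibres bound by cuticle proteins. Chitin-binding obstructor proteins order the fibres, and Tweedle, Lcp and Cpr proteins are structural components of the layers. During heat shock, fly cells transcribe heat shock genes at a high rate while the transcription and translation of most other genes are reduced.

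The level of oc and the heat treatment were read first, and the level of the human Otx2 transgene was not read. The probe set of oc stood at 6448, 6246, 6213 and 6385 in hsp-otd and at 127, 105, 121 and 96.6 in hsp-Otx2. It stood at 235, 20.0 and 76.7 in heat-shocked wild type and between 20.0 and 21.2 in untreated wild type. Hsp68, an inducible chaperone, lay at the floor on all 5 untreated arrays and between 14921 and 18086 on the 11 heat-shocked arrays. Mean deposited intensity ran from 460 to 1016 over the arrays, and untreated arrays 4 and 5 were brighter (951 and 999) than untreated arrays 1 to 3 (599 to 662). Nothing in the labels states whether replicate arrays come from separate batches of embryos, so p-values measure only the spread between these arrays.

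On the 11 heat-shocked arrays, between 51 and 70 of the 97 members lay above the floor, while all 97 did on the untreated arrays by the rule. The rule's levels were met by 1.34% of the probe sets above the floor in untreated embryos. Alone, the difference of 1.5 was met by 498 probe sets in hsp-otd, 593 in hsp-Otx2 and 540 in heat-shocked wild type. The median difference of the members from untreated wild type was -2.63 in hsp-otd, -2.53 in hsp-Otx2 and -2.69 in heat-shocked wild type. Over all 8807 probe sets the median of the mean of these differences was -0.10, and 27.9% lay below untreated wild type in all 3 groups by any amount. The lowest of the 3 groups was hsp-otd alone for 30 members, hsp-Otx2 alone for 15 and heat-shocked wild type alone for 40, and 12 members had tied groups at the floor, 6 of them all 3 groups. The 3 differences of a member spanned less than 1 log2 unit for 45 members and more than 2 for 10. For 70 members no heat-shocked array reached the lowest untreated array, and for 27 the arrays overlapped. Over all 8807 probe sets the share with no such overlap was 5.85%, and nothing is read from this, since the members were selected on low values in these groups.

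**Figure D1:**
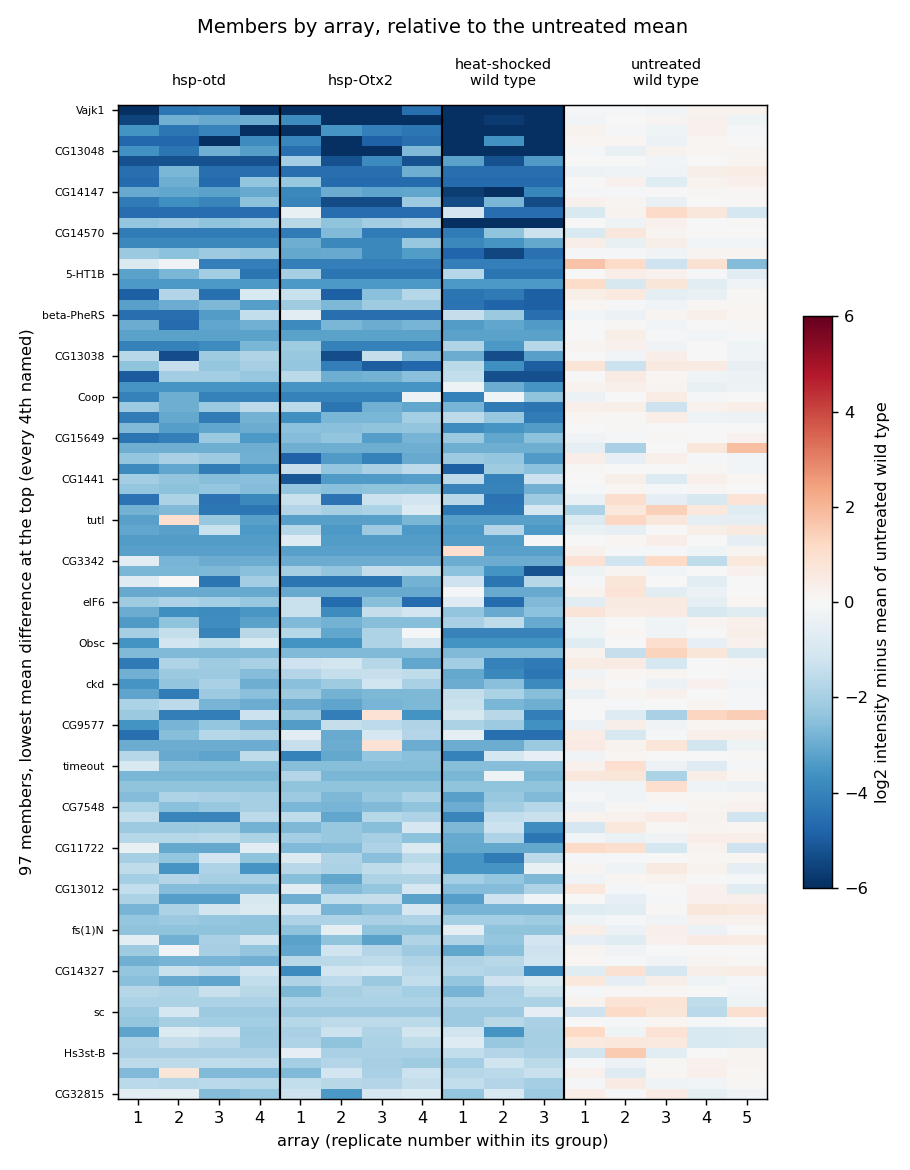
Log2 normalized intensity of each of the 97 members (rows, lowest mean difference at the top) on each of the 16 arrays (columns), minus the member's mean over the 5 untreated arrays; blue is below that mean and red above it. The 11 heat-shocked arrays are blue for nearly every member, with median differences between -2.33 and -2.96, and single pale or red cells mark members that 1 array of a group measured near the untreated level.

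The members were not confined to bright or dim genes of untreated embryos. Their untreated levels (geometric means of normalized intensity) ran from 74.6 to 13596 with a median of 419.5, beside 454 over all 8807 probe sets. With the 8807 probe sets cut into 4 equal groups by untreated level, the share that met the levels was 1.14% in the dimmest, 1.36%, 1.18% and 1.68% in the brightest. The spread among replicates of the heat-shocked groups was larger than for probe sets in general, but by the rule the members are low there. Their median SD (log2) was 0.55 in hsp-otd, 0.69 in hsp-Otx2, 0.72 in heat-shocked wild type and 0.35 in untreated wild type. Over all 8807 probe sets it was 0.17 in hsp-otd, 0.19 in hsp-Otx2, 0.31 in heat-shocked wild type and 0.32 in untreated wild type. In untreated wild type it was 0.33 for other probe sets at the members' levels. No such matching by level was made in the heat-shocked groups, so the larger spread is not read as a trait of the members. Only 25 members were above the floor on all 11 heat-shocked arrays, 66 were on some of them, and 6 lay at the floor on all 11. A member at the floor on every array of a group has a bound in that group, which is given as a fold of at least the untreated level over the floor.

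The 10 members assigned to cuticle and chitin had a median mean difference of -3.51, against -2.68 over all 97. Their untreated levels ran from 342 to 3116 with a median of 1305. The floor limits how far a dim member can fall, and members of other roles were dimmer in untreated embryos (a median of 266 for the nervous system and 173 for the eggshell), so the order of the role medians was not read as a result.

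Vajk1, a cuticle protein of the Vajk family, was the lowest of all members. It read 25.5, 123, 133 and 20.0 in hsp-otd, 20.0, 20.0, 20.0 and 110.0 in hsp-Otx2, and 20.0 on all 3 heat-shocked wild-type arrays, against 2279, 2296, 2219.5, 2932 and 2899 in untreated wild type. Every heat-shocked array was far below every untreated one, and heat-shocked wild type lay at the floor throughout, a level at least 125-fold lower than in untreated wild type. The differences were -5.54 in hsp-otd and -6.35 in hsp-Otx2. Vajk4, of the same family, kept a measurable level in every group. It read 253, 310.4, 383 and 250.1 in hsp-otd, 567, 381, 553 and 534 in hsp-Otx2, and 113, 87.4 and 81.2 in heat-shocked wild type, against 2628, 2359, 2137, 2557 and 2650.2 in untreated wild type. Heat-shocked wild type was the lowest group and untreated wild type the highest, with no overlap, while the lowest hsp-Otx2 array lay just below the highest hsp-otd array. A second probe set for Vajk4 was lower than untreated by less, with differences of -1.75 in hsp-otd, -0.81 in hsp-Otx2 and -1.77 in heat-shocked wild type.

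The chitin-binding members were near the floor in the heat-shocked groups. obst-E, an obstructor that binds chitin in the larval cuticle, read 20.0, 66.2, 20.0 and 97.1 in hsp-otd, 104, 20.0, 20.0 and 20.0 in hsp-Otx2, and 20.0 on all 3 heat-shocked wild-type arrays, against 500.2, 599, 297, 568 and 613 in untreated wild type. Peritrophin-A, named for a chitin-binding peritrophin domain, read 43.7, 65.4, 52.9 and 148.5 in hsp-otd, 53.4, 20.0, 20.0 and 179.8 in hsp-Otx2, and 20.0, 125 and 20.0 in heat-shocked wild type, against 993, 926, 602, 812 and 856.5 in untreated wild type. Neither gene's heat-shocked and untreated arrays overlapped. exp (expansion), which is needed to deposit chitin in the tracheal lumen, read 189.5, 294, 20.0 and 20.0 in hsp-otd and 20.0 on every array of the other 2 heat-shocked groups, against 1131, 756, 147, 654 and 56.8 in untreated wild type. Its hsp-otd and untreated arrays overlapped, and the untreated arrays alone spread widely.

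Among structural cuticle proteins, Tb lay in steps over the 3 heat-shocked groups. Tb (Tubby) belongs to the Tweedle family, and its symbol was not among those left out. It read 264, 223, 278 and 246 in hsp-otd, 149.9, 152, 83.9 and 120.0 in hsp-Otx2, and 46.0, 27.8 and 56.1 in heat-shocked wild type, against 1196, 1189, 1081, 1392 and 1403 in untreated wild type. No group overlapped another. Lcp65Af, a larval cuticle protein, read 92.4, 56.0, 91.5 and 140.5 in hsp-otd, 138, 20.0, 56.6 and 48.8 in hsp-Otx2, and 60.4, 22.3 and 20.0 in heat-shocked wild type, against 517, 529, 179.9, 496 and 554 in untreated wild type. The heat-shocked arrays stayed below the lowest untreated one. resilin, the elastic protein of the cuticle, read 381, 506, 428 and 301 in hsp-otd, 379, 254, 368 and 473 in hsp-Otx2, and 807, 280.2 and 345 in heat-shocked wild type, against 2030.5, 2123, 2026, 733 and 735 in untreated wild type. Untreated arrays 4 and 5 lay well below untreated arrays 1 to 3 for resilin, and 1 heat-shocked wild-type array exceeded them.

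A pair of apical matrix genes differed among the heat-shocked groups. Muc91C, a mucin-type protein, read 519.5, 597, 501 and 566 in hsp-otd, 832, 496, 633 and 758 in hsp-Otx2, and 20.0 on all 3 heat-shocked wild-type arrays, against 2650.2, 2166, 3158, 2657 and 2762 in untreated wild type. Its level in heat-shocked wild type was at least 133-fold lower than in untreated wild type, while both lines stayed well above the floor. Its 3 differences spanned 5.06, the widest of the 97. Osi18, of the Osiris family of insect membrane proteins, read 429.8, 459, 458 and 427 in hsp-otd, 973, 1020.4, 1096 and 908 in hsp-Otx2, and 909, 973 and 1364 in heat-shocked wild type, against 3343, 2885, 2662, 3460.5 and 3306 in untreated wild type. Here hsp-otd was the lowest group, and hsp-Otx2 and heat-shocked wild type overlapped.

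**Figure D2:**
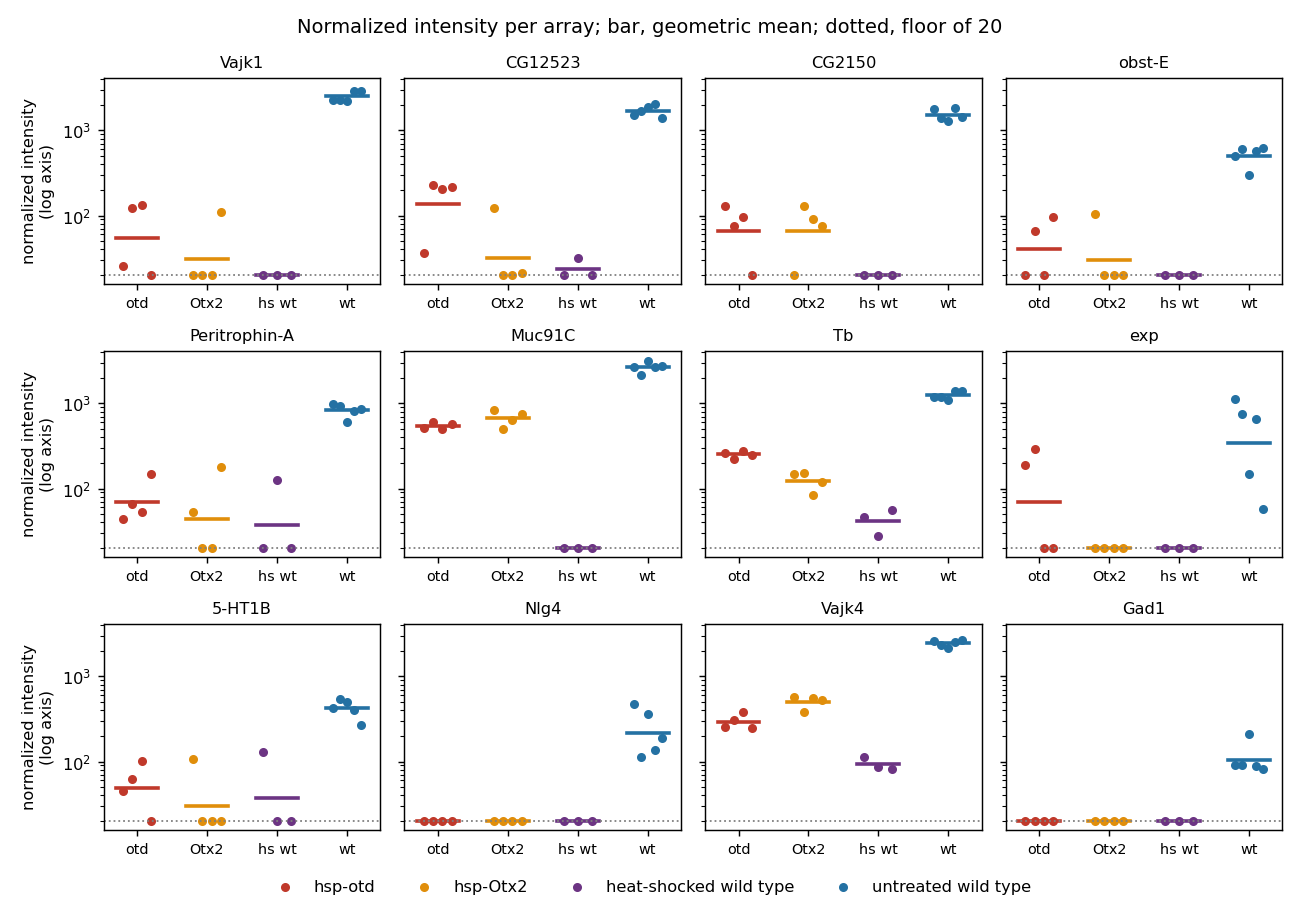
Normalized intensity (log axis) of 12 named members in each group; each point is 1 array, each bar the geometric mean of the group, and the dotted line the floor of 20. Vajk1, CG2150, obst-E, Muc91C, exp, Nlg4 and Gad1 lie at the floor on all heat-shocked wild-type arrays, whereas Muc91C, Tb and Vajk4 lie above it on every array of both lines.

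Members of the nervous system were dimmer in untreated embryos, with untreated levels from 105 to 419.5. Their median mean difference was -2.60. 5-HT1B, a serotonin receptor, read 44.9, 62.8, 101 and 20.0 in hsp-otd, 106, 20.0, 20.0 and 20.0 in hsp-Otx2, and 128, 20.0 and 20.0 in heat-shocked wild type, against 429.8, 545, 506, 403 and 272 in untreated wild type. Nlg4, a neuroligin of the postsynaptic membrane, lay at the floor on all 11 heat-shocked arrays and read 474, 113, 357, 138 and 189 in untreated wild type, so each heat-shocked group was at least 10.9-fold lower. Gad1, which makes the transmitter GABA, lay at the floor on the same 11 arrays and read 91.2, 91.0, 210.2, 89.1 and 82.8 in untreated wild type. These untreated levels are not far above the floor, and the bound for Gad1 is 5.3-fold.

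The other neural members were nAChRalpha2, Pdf and tutl. nAChRalpha2, an acetylcholine receptor subunit, read 73.2, 50.9, 46.0 and 148.5 in hsp-otd, 120.1, 139.9, 90.6 and 152 in hsp-Otx2, and 84.5, 175 and 219.7 in heat-shocked wild type, against 643, 277, 538, 356 and 381 in untreated wild type. It was the member nearest to the rule's limit. Pdf, the neuropeptide of the clock neurons, averaged 47.0 in hsp-otd, 75.5 in hsp-Otx2 and 65.1 in heat-shocked wild type, against 313 in untreated wild type. tutl, a cell-surface protein of the immunoglobulin superfamily, read 20.0, 388, 39.5 and 20.0 in hsp-otd and 20.0, 20.0, 20.0 and 28.7 in hsp-Otx2. It lay at the floor on every heat-shocked wild-type array. The 1 hsp-otd array of 388 lay within the untreated range of 110.4 to 463.

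The 9 members of transcription and signalling had a median mean difference of -2.68. ind, a homeobox factor of the neuroectoderm, read 248, 418, 20.0 and 99.3 in hsp-otd, 20.0, 20.0, 20.0 and 58.9 in hsp-Otx2, and 179.9, 20.0 and 129.8 in heat-shocked wild type, against 399, 699, 408, 266 and 429 in untreated wild type. One hsp-otd array of ind thus lay inside the untreated range. sc, a proneural factor, read 38.4, 204, 148, 29.5 and 175 in untreated wild type and was above the floor on 1 hsp-otd array (42.9), no hsp-Otx2 array and 1 heat-shocked wild-type array (62.8). ex, a component of the Hippo pathway, averaged 31.6 in hsp-otd, 33.7 in hsp-Otx2 and 29.7 in heat-shocked wild type, against 219 in untreated wild type, with no overlap. Coop, a corepressor of the Wnt effector Pangolin, read 20.0, 43.8, 20.0 and 20.0 in hsp-otd, 20.0, 20.0, 20.0 and 259 in hsp-Otx2, and 20.0, 276 and 62.8 in heat-shocked wild type, against 257, 333, 452, 322 and 334 in untreated wild type. In Coop, 1 array of hsp-Otx2 and 1 of heat-shocked wild type reached the lowest untreated array.

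The other signalling members were enzymes or adaptors. PIP5K59B, a lipid kinase that makes phosphatidylinositol bisphosphate, lay at the floor on all 4 hsp-otd arrays and averaged 31.1 in hsp-Otx2 and 26.0 in heat-shocked wild type, against 297 in untreated wild type. Hph, the prolyl hydroxylase that marks the hypoxia factor for degradation, read 251, 253, 265 and 219 in hsp-otd, 204, 169.7, 210.0 and 150.2 in hsp-Otx2, and 102, 226 and 41.5 in heat-shocked wild type, against 741, 629, 712, 1085 and 1069 in untreated wild type. On this probe set the heat-shocked arrays of Hph were all below the untreated ones. A brighter probe set of Hph differed from untreated wild type by -0.44 in hsp-otd, -1.31 in hsp-Otx2 and -0.02 in heat-shocked wild type. spri, an exchange factor for the small GTPase Rab5, averaged 24.7 in hsp-otd, 72.6 in hsp-Otx2 and 45.1 in heat-shocked wild type, against 276 in untreated wild type. Of the remaining pair, Traf-like averaged 58.3 in hsp-otd, 29.4 in hsp-Otx2 and 54.5 in heat-shocked wild type, against 186 in untreated wild type. timeout, a relative of the clock gene timeless, averaged 26.6 in hsp-otd and lay at the floor on all arrays of hsp-Otx2 and heat-shocked wild type, against 116 in untreated wild type.

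Eggshell genes, which are best known from the ovary, were dim members. clos lay at the floor on all 4 hsp-otd arrays and averaged 31.2 in hsp-Otx2 and 42.9 in heat-shocked wild type, against 206.5 in untreated wild type. A single heat-shocked wild-type array (198) lay inside the untreated range. fs(1)N, needed for the vitelline membrane and for Torso signalling, averaged 20.0 in hsp-otd, 27.7 in hsp-Otx2 and 30.9 in heat-shocked wild type, against 106 in untreated wild type. yellow-g, a Yellow-family gene of the eggshell, averaged 54.0 in hsp-otd, 41.2 in hsp-Otx2 and 35.4 in heat-shocked wild type, against 173 in untreated wild type. One hsp-otd array of yellow-g (149) overlapped the lowest untreated array (147).

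Enzymes of metabolism had 8 members with a median mean difference of -2.57. Elovl7, a fatty acid elongase, was the brightest of them and read 498, 631, 618 and 591 in hsp-otd, 761, 849.7, 833 and 809.6 in hsp-Otx2, and 554, 783 and 654 in heat-shocked wild type, against 2571, 2332, 2727, 2355 and 2557 in untreated wild type. The difference was narrow in spread and no array overlapped. PIG-N, an enzyme of the membrane anchor glycosylphosphatidylinositol, read 116, 153, 128 and 78.1 in hsp-otd, 20.0, 55.0, 35.0 and 71.1 in hsp-Otx2, and 130.4, 116 and 54.6 in heat-shocked wild type, against 774, 416, 715, 561 and 522 in untreated wild type. The other 6 had untreated levels of 78.5 to 425. They were Cyp4aa1 (a cytochrome P450), Pgls (an enzyme of the pentose phosphate pathway), S-Lap7 (a leucyl aminopeptidase), Amy-p (a salivary and midgut amylase), Nox (an NADPH oxidase) and Hs3st-B (a heparan sulfate sulfotransferase). Of these, S-Lap7, Amy-p and Hs3st-B each had 1 heat-shocked array at or above the lowest untreated one.

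For translation and RNA there were 4 members, and none of their heat-shocked arrays reached the untreated ones. beta-PheRS, a subunit of phenylalanyl-tRNA synthetase, averaged 41.4 in hsp-otd, 39.1 in hsp-Otx2 and 69.4 in heat-shocked wild type, against 461 in untreated wild type. eIF6, a factor of the large ribosomal subunit, averaged 119 in hsp-otd, 50.6 in hsp-Otx2 and 76.6 in heat-shocked wild type, against 495 in untreated wild type. CysRS-m, the mitochondrial cysteinyl-tRNA synthetase, averaged 66.3 in hsp-otd, 42.3 in hsp-Otx2 and 92.5 in heat-shocked wild type, against 338 in untreated wild type. RluA-1, a pseudouridine synthase, lay at the floor on all 11 heat-shocked arrays and read 86.2, 133, 131, 25.8 and 59.9 in untreated wild type. Obsc, the giant muscle protein obscurin, averaged 69.5 in hsp-otd, 41.4 in hsp-Otx2 and 20.0 in heat-shocked wild type, against 239 in untreated wild type. The 5 members with a symbol to which no role was assigned were thw, EbpIII, kmr, myd and ckd, and thw and EbpIII lay at the floor on all 11 heat-shocked arrays. Untreated thw read 181, 234, 179.9, 168 and 177, whereas untreated EbpIII spread between 40.7 and 541.

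**Figure D3:**
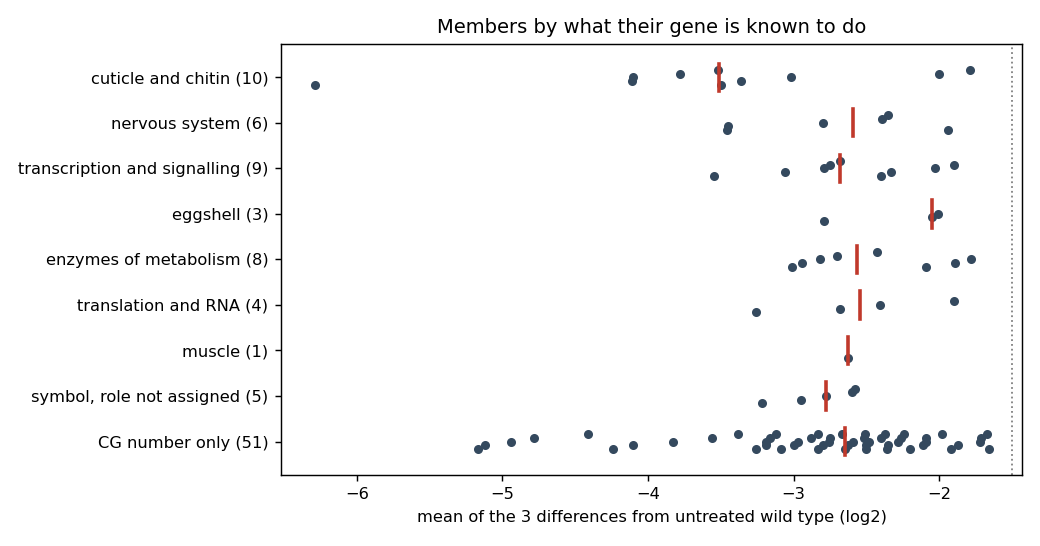
Mean of the 3 differences from untreated wild type (log2, horizontal axis) of each member, by what its gene is known to do (rows, with the number of members); red marks are medians and the dotted line is the rule's limit of -1.5. The median is -3.51 in the cuticle and chitin row and between -2.05 and -2.78 in the others, and each row's range is limited by the floor and by the untreated levels of its members.

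The brightest members were genes with a CG number, whose function is not annotated in the sources used. CG15022 read 2691, 2968, 2692 and 2564 in hsp-otd, 3750.5, 3706, 3475 and 3810.2 in hsp-Otx2, and 3326, 3342 and 3102 in heat-shocked wild type, against 11239.9, 13147, 11892, 16453 and 16065 in untreated wild type. CG14147 read 734, 688, 634 and 717 in hsp-otd, 411, 746, 659 and 675 in hsp-Otx2, and 114, 20.0 and 399 in heat-shocked wild type, against 5554, 5591, 5916, 6160.4 and 6385 in untreated wild type. Neither gene's heat-shocked arrays came near the untreated ones, and CG14147 was lower and more variable in heat-shocked wild type than in the lines. CG14752 read 1794, 1767, 1846 and 1757 in hsp-otd, 1298, 1536, 1301 and 1204 in hsp-Otx2, and 1262, 2332 and 1716 in heat-shocked wild type, against 4796, 4104, 5554, 6234 and 5868 in untreated wild type. It kept the largest share of its untreated level among these 3.

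The lowest of the CG-numbered members were CG12523, CG2150, CG12164 and CG13048. CG12523 read 36.1, 228, 203 and 214 in hsp-otd, 121, 20.0, 20.0 and 21.4 in hsp-Otx2, and 20.0, 31.5 and 20.0 in heat-shocked wild type, against 1508, 1669.9, 1878, 2027 and 1389.9 in untreated wild type. CG2150 read 129, 75.4, 95.9 and 20.0 in hsp-otd, 20.0, 131, 90.6 and 75.2 in hsp-Otx2, and 20.0 on all 3 heat-shocked wild-type arrays, against 1772, 1408, 1290.2, 1853 and 1415 in untreated wild type. Both lay at or near the floor in heat-shocked wild type. CG12523 was above the floor on all 4 hsp-otd arrays and 2 of the 4 hsp-Otx2 arrays, and CG2150 on 3 of the 4 arrays of each line. CG12164 averaged 45.8 in hsp-otd, 44.5 in hsp-Otx2 and 34.5 in heat-shocked wild type, against 1265 in untreated wild type. CG10280, at the floor on all 11 heat-shocked arrays, read 144, 46.8, 309, 206 and 67.2 in untreated wild type. The other CG-numbered members filled the range up to the limit, with mean differences between -4.41 and -1.66 apart from those named.

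The rule's limit cut through a continuum. The 4 members just inside it, by their least lowered group, were nAChRalpha2 (-1.502), CG17104 (-1.522), CG13005 (-1.536) and CG32815 (-1.543). Just outside were CG13847 (-1.497), tko (-1.496), CG13043 (-1.489) and CG16820 (-1.485). tko, a mitochondrial ribosomal protein, had a difference of -4.03 in hsp-otd and missed the limit only in heat-shocked wild type.

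Gene order in the Release 6 plus ISO1 MT assembly placed all 97 members, and 8 of them lay in 3 runs with gaps of at most 5 genes. The longest run held CG13065, CG13048, CG13047 and CG13046 on chromosome arm 3L, 4 members within 7 neighbouring genes. CG13047 was the brightest of them and read 761, 1295, 1201 and 1139 in hsp-otd, 1026, 717, 951 and 1245 in hsp-Otx2, and 495, 962 and 749 in heat-shocked wild type, against 4392, 3994, 5131, 4975 and 4995 in untreated wild type. CG13048 was the lowest of them, with 103, 61.9, 172 and 130.1 in hsp-otd, 56.1, 20.0, 20.0 and 202 in hsp-Otx2, and 20.0 on all 3 heat-shocked wild-type arrays, against 1214, 940.5, 1488, 1379 and 1449 in untreated wild type. CG13046 and CG13065 were dimmer, and their heat-shocked and untreated arrays overlapped. Within 12 genes to each side of CG13047, 23 of 25 genes were measured and 18 lay above the floor in untreated embryos. Of these 18, 14 were below untreated wild type in all 3 heat-shocked groups by any amount, beside 27.9% of all probe sets. CG13042, CG13062, CG13045 and Nplp3 were the 4 that were not, each higher than untreated wild type in 1 or more heat-shocked groups. The 14 include the 4 members, which the rule fixed, and the stretch was chosen for its run of members. How often other genes lie in such runs was not tested, so neither the runs nor the 14 are read as a result. In the other runs, resilin lay near CG15615 on 2R and CG6006 near CG8927 on 3R, and the genes between each pair had median mean differences of 0.63 and -0.30. Some genes left out by symbol also lay beside members. Tb lay 1 place from TwdlQ and 2 from TwdlD, and CG14147 lay 3 places from Cpr67Fa2 and 4 from Cpr67Fa1.

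**Figure D4:**
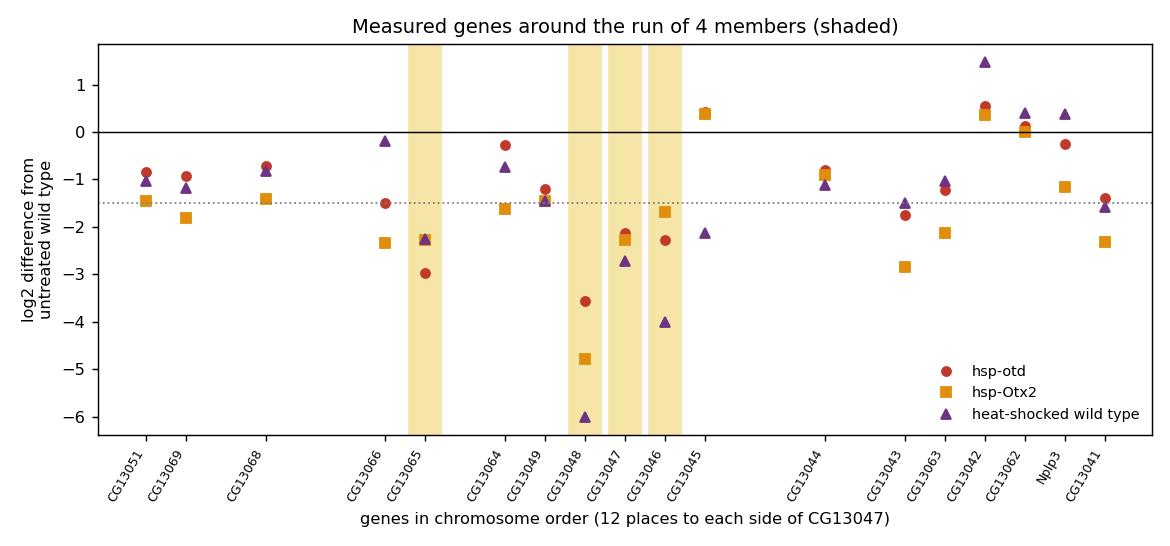
Difference from untreated wild type (log2) of the 18 genes above the floor in untreated embryos within 12 places of CG13047, in chromosome order, for each heat-shocked group; members are shaded and the dotted line is the limit of -1.5. CG13048 is the lowest gene of the stretch, most neighbours lie between the limit and 0 in at least 1 group, and CG13042 lies above 0 in all 3.

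Some member genes had further probe sets, and most of these did not share the pattern. Another 32 probe sets matched 19 of the member genes, and 16 of them (14 genes) lay above the floor on all 5 untreated arrays. Their median mean difference was -0.47. Only the second probe set of CG32548 was at least 1 log2 unit below untreated wild type in all 3 groups, at -3.57 in hsp-otd, -1.24 in hsp-Otx2 and -1.14 in heat-shocked wild type. The second probe set of nAChRalpha2 differed from untreated wild type by -2.13 in hsp-otd, -1.31 in hsp-Otx2 and -0.83 in heat-shocked wild type. A further 4 probe sets lay within 0.5 of untreated wild type in all 3 groups, among them those for tutl (-0.17 in hsp-otd, -0.17 in hsp-Otx2 and -0.12 in heat-shocked wild type) and kmr (0.19 in hsp-otd, -0.02 in hsp-Otx2 and 0.39 in heat-shocked wild type). Probe sets of Obsc (-0.06 in hsp-otd, -0.07 in hsp-Otx2 and 0.33 in heat-shocked wild type) and spri (-0.21, -0.45 and 0.32) were also among them. A dimmer probe set of Obsc was lower (-0.46, -1.44 and -1.21 in the same order). Further probe sets of clos (-0.48, -0.31 and 0.68) and timeout (-0.24, -0.63 and 0.09) did not meet the rule. For myd the second probe set was higher in heat-shocked wild type than in untreated wild type (0.90). Several of these identifiers are older CG numbers that were matched to present gene names, and which transcripts of a gene each probe set reads was not tested.

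The comparisons among the heat-shocked groups were not part of the rule, which used the mean of each of these groups against untreated wild type. They were tested with limma across 12301 probe sets, with Benjamini-Hochberg adjustment and a threshold of 0.05. These comparisons ask whether RNA levels after heat shock differed in embryos that carry the fly gene or its human counterpart. Each transgene is 1 line set against Oregon-R, so the transgene and the genetic background of its line cannot be told apart. Few members passed. In hsp-otd over heat-shocked wild type, 12 of 97 members passed as higher, beside 15.8% of all probe sets, and 2 as lower, beside 13.6%, so that 14.4% of members and 29.3% of all probe sets passed. In hsp-Otx2 over heat-shocked wild type, 13 passed as higher, beside 17.5%, and 1 as lower, beside 19.7%. Both comparisons share the 3 heat-shocked wild-type arrays. In hsp-otd over hsp-Otx2, 5 passed as higher, beside 15.7%, and 8 as lower, beside 13.8%. The rule holds all 3 groups low. Every array of a group lay at the floor for 18 members in hsp-otd, 13 in hsp-Otx2 and 20 in heat-shocked wild type. This limits the differences among the groups, so the smaller shares that passed are not read as a result about the members. At an unadjusted p under 0.05, 25 members passed in hsp-otd over heat-shocked wild type, 21 in hsp-Otx2 over heat-shocked wild type and 17 in hsp-otd over hsp-Otx2. The median log2 fold change of the members was 0.10 in hsp-otd over heat-shocked wild type, 0.18 in hsp-Otx2 over heat-shocked wild type and 0.00 in hsp-otd over hsp-Otx2, beside -0.00, -0.13 and 0.02 over all probe sets. In all, 24 members passed in at least 1 comparison and 73 in none. Of the 25 members above the floor on all 11 heat-shocked arrays 13 passed, and of the other 72 members 11 passed.

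In hsp-otd over heat-shocked wild type, the 2 cuticle genes Tb and Vajk4 and the mucin Muc91C were higher. Muc91C had a fitted log2 fold change of 4.77 ± 0.17 (SE) with an adjusted p of 1.49e-11 (limma). Since heat-shocked wild type lay at the floor, Muc91C was at least 27.2-fold higher in hsp-otd than in heat-shocked wild type. Tb was higher by 2.60 ± 0.27 (limma adjusted p = 5.19e-06) and Vajk4 by 1.66 ± 0.18 (limma adjusted p = 8.35e-06). On these probe sets all 4 hsp-otd arrays of each gene were above all 3 heat-shocked wild-type arrays. The brighter second probe set of Vajk4 did not show this difference, averaging 1212 in hsp-otd and 1196 in heat-shocked wild type. CG14147 (2.84 ± 0.60, limma adjusted p = 0.00245), CG13048 (2.45 ± 0.63, limma adjusted p = 0.00851) and CG30427 (1.21 ± 0.24, limma adjusted p = 0.00159) were also higher, and CG13048, at the floor in heat-shocked wild type, was at least 5.5-fold higher. The 6 further members that passed as higher were CG12523, CG2150, CG15615, CG17104, CG13047 and Hph, with fitted log2 fold changes between 0.54 and 2.56. Arrays of hsp-otd and heat-shocked wild type overlapped for CG13047 and Hph, and 1 hsp-otd array of CG2150 lay at the floor. CG13047 (limma adjusted p = 0.0499) and CG2150 (limma adjusted p = 0.0468) were near the threshold. CG2150 lay at the floor in heat-shocked wild type and was at least 3.3-fold higher in hsp-otd. The second probe set of CG30427 averaged less in hsp-otd (236) than in heat-shocked wild type (321). So did the brightest probe set of Hph (1809 against 2422), while a dim probe set of Hph averaged more (136 against 39.6). The 2 lower members were Osi18 (-1.26 ± 0.13, limma adjusted p = 3.75e-06) and CG10657 (-1.04 ± 0.31, limma adjusted p = 0.0195). The call for CG10657 was lost without hsp-otd array 3 (adjusted p = 0.0594), without heat-shocked wild-type array 1 (adjusted p = 0.0608) and without heat-shocked wild-type array 2 (adjusted p = 0.114). With no normalization, where the median of all probe sets moved to 0.68, neither lower call remained. Vajk1, the lowest member, had a fitted log2 fold change of 1.43 ± 0.69 and did not pass (limma adjusted p = 0.132), and with heat-shocked wild type at the floor its ratio is a lower bound of 2.7-fold.

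In hsp-Otx2 over heat-shocked wild type, Muc91C again had the largest fitted change, 5.06 ± 0.17 (limma adjusted p = 7.78e-12), and was at least 33.3-fold higher. Vajk4 was higher by 2.44 ± 0.18 (limma adjusted p = 5.04e-08) and Tb by 1.57 ± 0.27 (limma adjusted p = 2.98e-04). CG15615 read 448, 435, 466 and 481 in hsp-Otx2, against 181, 212 and 244 in heat-shocked wild type, a change of 1.12 ± 0.14 (limma adjusted p = 1.24e-05). CG17104 read 121, 149.6, 155 and 141 in hsp-Otx2, against 48.8, 27.8 and 20.0 in heat-shocked wild type, a change of 2.23 ± 0.36 (limma adjusted p = 1.28e-04). CG30427 was higher by 1.21 ± 0.24 (limma adjusted p = 9.40e-04). On the member probe sets of these genes each hsp-Otx2 array lay above each heat-shocked wild-type array. The second probe set of CG30427 was not higher, averaging 232 in hsp-Otx2 against 321 in heat-shocked wild type. The other 7 members that passed as higher were CG2150, CG14147, CG32548, CG14191, CG13046, CG6055 and Elovl7, with fitted log2 fold changes between 0.31 and 2.65. Arrays of hsp-Otx2 and heat-shocked wild type overlapped for CG32548, CG6055 and Elovl7, and 1 hsp-Otx2 array of CG2150 lay at the floor. Elovl7 (limma adjusted p = 0.0492) and CG2150 (limma adjusted p = 0.0401) were near the threshold. CG2150 and CG13046 lay at the floor in heat-shocked wild type and were at least 3.2-fold and 5.0-fold higher in hsp-Otx2. The second probe set of CG32548 averaged 236 in hsp-Otx2 and 252.5 in heat-shocked wild type, and so was not higher. PIG-N was the 1 lower member, at -1.20 ± 0.46 (limma adjusted p = 0.0486). Its call was lost in 20 of 26 alternatives, and its adjusted p was 0.156 without heat-shocked wild-type array 1 and 0.135 without hsp-Otx2 array 1.

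Between the lines, hsp-otd over hsp-Otx2, Tb was higher in hsp-otd by 1.04 ± 0.25 (limma adjusted p = 0.00487) and Osi18 was lower by -1.17 ± 0.12 (limma adjusted p = 1.20e-06). Vajk4 was lower in hsp-otd by -0.77 ± 0.17 (limma adjusted p = 0.00224), CG15615 by -0.57 ± 0.13 (limma adjusted p = 0.00277), and Elovl7 by -0.48 ± 0.11 (limma adjusted p = 0.00253). CG15022, the brightest member, was lower by -0.43 ± 0.10 (limma adjusted p = 0.00420). CG32548 read 116, 192, 90.0 and 139.9 in hsp-otd, against 633, 326, 432 and 551 in hsp-Otx2, a change of -1.86 ± 0.43 (limma adjusted p = 0.00329). CG17104 and spri also passed as lower. The arrays of the lines did not overlap for Tb, Osi18, CG15615, Elovl7, CG15022, CG32548 or CG17104, nor for PIG-N and CG14752, which follow. PIG-N (1.5 ± 0.42, limma adjusted p = 0.0122), CG12523 (2.11 ± 0.62, limma adjusted p = 0.0151), CG6006 (2.01 ± 0.69, limma adjusted p = 0.0372) and CG14752 (0.43 ± 0.16, limma adjusted p = 0.0468) passed as higher in hsp-otd. The call for CG12523 was lost without hsp-otd array 2 (adjusted p = 0.0524) or array 4 (adjusted p = 0.0515), and those for CG6006 and CG14752 were lost in 10 and 16 of 26 alternatives.

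**Figure D5:**
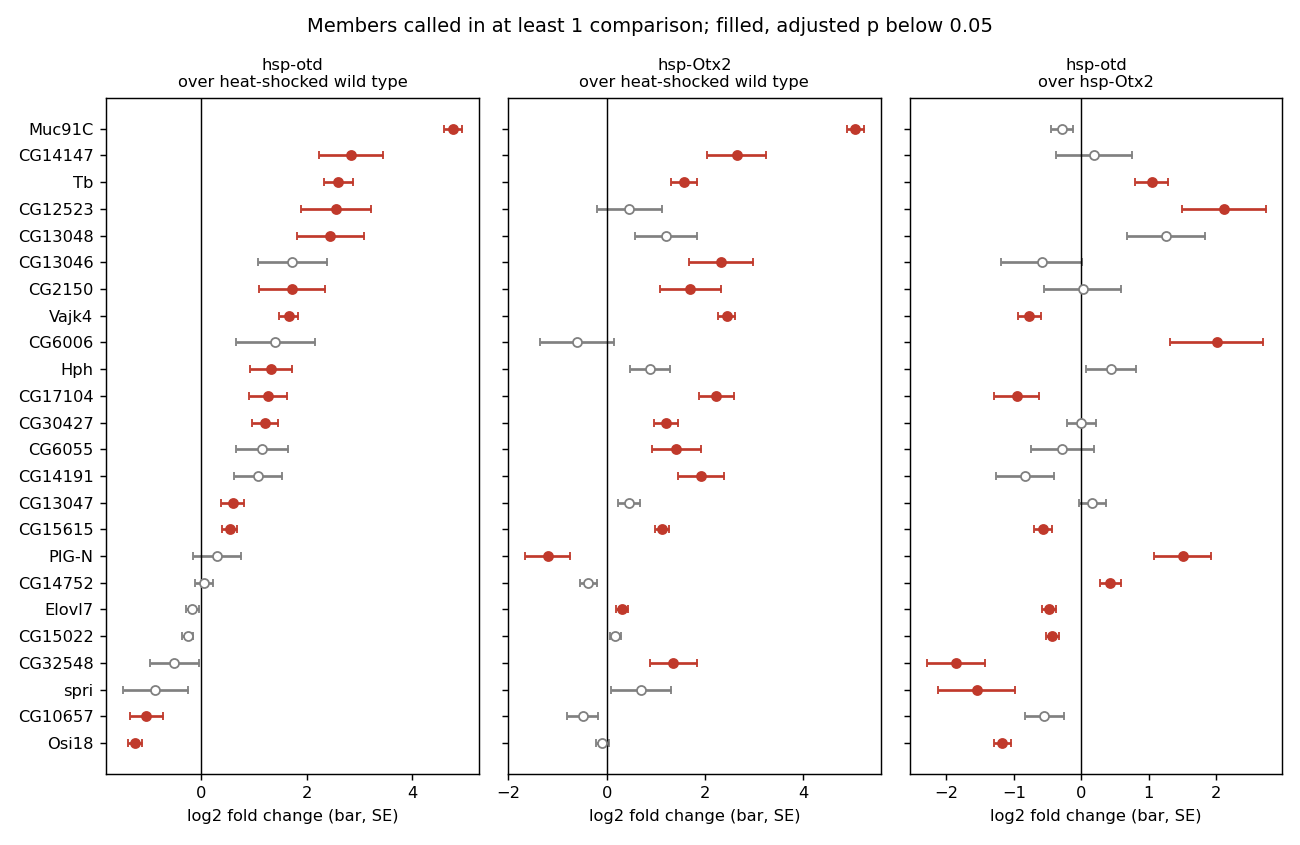
Log2 fold change with its SE of the 24 members that passed in at least 1 of the 3 comparisons among heat-shocked groups (rows); filled red points have a limma adjusted p below 0.05 and open grey points do not. Muc91C stands apart at 4.77 and 5.06 over heat-shocked wild type and near 0 between the lines, while Osi18 is lower in hsp-otd than in either other heat-shocked group.

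Other genes of cuticle formation were read from lists that hold no gene with a symbol left out, and their counts stand beside the shares of all probe sets given above (15.8% higher and 13.6% lower in hsp-otd over heat-shocked wild type, 17.5% and 19.7% in hsp-Otx2 over heat-shocked wild type, 15.7% and 13.8% in hsp-otd over hsp-Otx2). Of 25 measured larval and pupal cuticle genes outside the symbols left out, 5 were members (Lcp65Af, resilin, Vajk1, Vajk4 and Muc91C). List medians of the mean difference are over the genes above the floor on all 5 untreated arrays only. The median of this list was -0.60 over 19 such genes. In this list 5 genes passed as higher and 2 as lower of 23 tested in hsp-otd over heat-shocked wild type, and 5 as higher and 1 as lower in hsp-Otx2 over heat-shocked wild type. Of 39 measured genes of chitin synthesis, binding and modification, 3 were members (obst-E, exp and Peritrophin-A), and the list's median was -0.65 over 25 such genes. Here 4 passed as higher and 8 as lower of 36 tested in hsp-otd over heat-shocked wild type, 6 as higher and 2 as lower in hsp-Otx2 over heat-shocked wild type, and none as higher and 10 as lower in hsp-otd over hsp-Otx2. Among 21 measured genes of cuticle hardening and melanin 1 was a member (yellow-g), with a list median of -0.92 over 12 such genes. Among 23 measured zona pellucida and apical matrix genes 1 was a member (Osi18), with a list median of -0.27 over 19 such genes. In that list, Osi18 included, 14 of 23 passed as lower and 1 as higher in hsp-otd over heat-shocked wild type. In hsp-Otx2 over heat-shocked wild type 9 passed as lower and none as higher, and in hsp-otd over hsp-Otx2 10 as lower and 3 as higher. The lists were entered with the brightest probe set of each gene, so Vajk4 counts as a member gene but enters with its second probe set (-1.75 in hsp-otd, -0.81 in hsp-Otx2 and -1.77 in heat-shocked wild type), which does not meet the rule.

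Markers of other cell types were mostly not members. No gene of the lists for muscle, glia, haemocytes, fat body, germ line or trachea was a member. Their list medians, over genes above the floor on all untreated arrays, ran from -0.37 to 0.07. The summed level of 11 trachea markers was 21660 to 23501 in hsp-otd, 22553 to 24061 in hsp-Otx2 and 24891 to 26538 in heat-shocked wild type, against 26848 to 33937 in untreated wild type. Most of this sum came from Gasp, serp and verm (untreated levels 8199, 9712 and 8867), which are also in the chitin list. Gasp differed by -1.13 in hsp-otd, -0.82 in hsp-Otx2 and -0.68 in heat-shocked wild type, and the tracheal factor trh by -0.25, 0.19 and -0.65. The sum is therefore not read as a measure of tracheal cells. Of 16 neuron markers Gad1 was the 1 member, and their sum was 5009 to 5578 in hsp-otd, 4296 to 4566 in hsp-Otx2 and 5129 to 6043 in heat-shocked wild type, against 4636 to 6744 in untreated wild type. The 27 midgut and digestive markers, 15 of them above the floor on all untreated arrays, had a list median of 0.83 and 1 member, Amy-p. Their sum was 12789 to 13586 in hsp-otd, 41637 to 44178 in hsp-Otx2 and 13380 to 16204 in heat-shocked wild type, against 8659 to 11345 in untreated wild type. The part of these shifts in the members' levels was not tested.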

How the data were processed

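The authors deposited 1 intensity on a linear scale for each probe set of each array, and some are negative. Their image reading, probe summary and array scaling are not given in the sources used here. Without 32 controls, 14038 probe sets were quantile normalized over the 16 arrays, floored at 20 and converted to log2. Groups come from the sample titles. Identifiers were matched to RefSeq names and gave 1 symbol to 13095 probe sets, several to 467 and none to 476. The 12301 probe sets above the floor on at least 3 arrays entered 1 linear model (limma 3.58.1, R 4.3.3, eBayes with a trend) with 1 coefficient for each group and 12 residual degrees of freedom, and 1737 were not tested. The scripts were checked for recovery of known changes. The members, lists and roles were chosen with earlier results of these data known.

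Members named were those with the lowest mean differences, at the floor on all heat-shocked arrays, brightest in untreated embryos, at the limit, with the smallest adjusted p in each comparison, or in a gene list, and others were added for their role after their values were seen. Replicate numbers did not pair the arrays: deviations of arrays with the same number correlated between -0.07 and 0.12. Alternatives changed the normalization, floor, filter, limit, variance model, arrays and replicate block. The number of arrays limits the precision.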

Additional observations from a re-analysis of the deposited data

Results flagged for a closer look

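Single arrays stood apart from the rest of their group for 8 named members, among 78 groups of 4 or 5 arrays examined, and chance alone marks about 1 group in 20. In hsp-otd, array 1 of CG12523 read 36.1 while the others read 203 to 228, and array 2 of yellow-g read 149 while the others read 33.7 to 43.1. In hsp-Otx2, array 2 of Vajk4 read 381, below the others at 534 to 567. In untreated wild type, array 3 was low for obst-E (297, others 500.2 to 613) and for Lcp65Af (179.9, others 496 to 554) and high for Gad1 (210.2, others 82.8 to 91.2). Array 2 of untreated wild type was high for thw (234, others 168 to 181) and array 5 was low for CG32548 (1482, others 1664 to 1735).

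Between the lines, 13 members passed when tested directly (limma, hsp-otd over hsp-Otx2). Of the 11 with the smallest adjusted p in each direction, the log2 difference was 1.04 for Tb, 1.5 for PIG-N, 2.11 for CG12523, 2.01 for CG6006 and 0.43 for CG14752. It was -1.17 for Osi18, -0.77 for Vajk4, -0.48 for Elovl7, -0.57 for CG15615, -1.86 for CG32548 and -0.43 for CG15022. The other two, CG17104 and spri, differed by -0.96 and -1.55.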

How the results depend on the processing

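The number of members, 97, was 92 with median scaling and 98 with no normalization (91 and 84 of the genes shared), 72 with a floor of 50, 121 with a floor of 10, 225 at a limit of 1, 53 at a limit of 2, and 90 to 112 with each array left out. With untreated arrays 4 and 5 left out it was 137, and with untreated arrays 1 to 3 left out 193 (86 and 84 shared), both chosen after seeing the data. In both, fewer untreated arrays had to lie above the floor. In hsp-otd over heat-shocked wild type, 7 members were higher with only the 2 groups in the fit, 0 were lower with no normalization, and with each array left out 9 to 14 were higher and 2 to 5 lower (4 without hsp-otd array 4, 5 without heat-shocked wild-type array 1, 4 without array 3). In hsp-Otx2 over heat-shocked wild type, 8 were higher with only those groups. There 0 were lower with median scaling, no normalization, no filter, the replicate block or only those groups, 2 with a floor of 10 or a filter of 8 arrays, and with each array left out 10 to 14 were higher and 0 to 4 lower (4 without any 1 of the heat-shocked wild-type arrays, 0 without any 1 of 8 arrays of the other groups). In hsp-otd over hsp-Otx2, 3 were higher with no filter, 2 were lower with no normalization and 13 with array weights, and with each array left out 2 to 7 were higher (3 without hsp-otd array 1 or hsp-Otx2 array 3, 2 without hsp-otd array 2 or 4) and 6 to 9 lower. With the replicate block the counts of higher and lower were 10 and 2, 9 and 0, and 4 and 6 in the 3 comparisons, and the replicate numbers do not pair the arrays. Of 676 values of named members under these alternatives, 615 kept their call, 61 lost it and 0 reversed. These values cover only the calls with the smallest adjusted p in each direction of each comparison. Other calls were not followed gene by gene. Among them were CG13047 (limma adjusted p = 0.0499) and CG2150 (0.0468) in hsp-otd over heat-shocked wild type. Elovl7 (0.0492) and CG2150 (0.0401) in hsp-Otx2 over heat-shocked wild type were also left out. The 615 kept values therefore do not describe all calls. With no normalization the median log2 fold change of all probe sets was 0.68 (-0.00 with quantile normalization) in hsp-otd over heat-shocked wild type, 0.29 (-0.13) in hsp-Otx2 over heat-shocked wild type and 0.26 (0.02) in hsp-otd over hsp-Otx2, and Osi18 (-0.46 over heat-shocked wild type), CG10657, Vajk4, Elovl7, CG15615 and CG15022 lost calls. Relative to these medians the 6 genes stayed lower. PIG-N in hsp-Otx2 over heat-shocked wild type and CG14752 between the lines lost theirs too. The cause of these changes was not tested.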
